A study of Mus musculus with 12 samples.

Results

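The Zfp genes are the mouse genes named zinc finger protein with a number. They were taken here as every gene whose only symbol on the array's annotation is Zfp followed by digits, without Zfp36, and 156 of the 12394 genes measured met that rule. Each gene was read from 1 probe set, a set of short probes for 1 transcript, the brightest of the gene's sets by its mean across all 12 arrays. The series measured RNA of the hippocampal CA1 subfield on Affymetrix arrays, in SUMO-KD mice and in wild-type mice. SUMO-KD mice are transgenic animals in which SUMO, a small protein that is attached to other proteins, is knocked down. Mice of each genotype had either transient forebrain ischemia of 10 minutes followed by 3 hours of reperfusion, or sham surgery. The groups were SUMO-KD ischemia, SUMO-KD sham, wild-type ischemia and wild-type sham, each with 3 arrays, and each array held RNA pooled from 2 brains. The sources used here do not name the promoter or cell type that drives the transgene, nor the strain, sex or age of the mice. The labels call the arrays biological replicates and name no surgery day or litter, so every p-value measures the spread between pools.

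Most Zfp genes encode proteins with tandem C2H2 zinc fingers, short loops held by a zinc ion that read DNA bases. Many of them also carry a KRAB domain, which recruits the corepressor Trim28 and with it the histone methyltransferase Setdb1 and heterochromatin proteins, and such proteins are best known for silencing transposable elements. The family grew by tandem duplication, so many members sit side by side in clusters and resemble each other in sequence. The name is broader than that family, and some members act in RNA processing, ribosome assembly or protein modification. Zfp36, left out by the rule, is a CCCH protein that binds mRNA and starts its decay. Zinc finger proteins are frequent SUMO targets, and Trim28 is itself a SUMO ligase and substrate.

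Promoters are shown first for the 2 largest rises and the 2 largest falls with ischemia in wild-type mice among members with an entry in the promoter table, so that the ischemia results can be read beside them. Zfp703, Zfp593, Zfp574 and Zfp623 had no entry. Each window runs from 250 bases before to 50 bases after the start of the first transcript listed, 5′ to 3′ on the gene's strand, from RefSeq on GRCm38.p6. The windows are chr1:136624651-136624950 on the plus strand for Zfp281, chr8:69716853-69717152 on the minus strand for Zfp869, chr6:117861774-117862073 on the plus strand for Zfp239 and chr5:109996260-109996559 on the plus strand for Zfp932. Capitals mark the motif matches described below.
Zfp281: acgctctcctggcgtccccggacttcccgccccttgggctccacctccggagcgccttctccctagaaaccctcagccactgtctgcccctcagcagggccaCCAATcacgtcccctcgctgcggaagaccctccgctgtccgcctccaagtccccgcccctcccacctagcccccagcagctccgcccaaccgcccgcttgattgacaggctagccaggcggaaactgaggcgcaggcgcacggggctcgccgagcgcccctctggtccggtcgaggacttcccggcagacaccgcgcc
Zfp869: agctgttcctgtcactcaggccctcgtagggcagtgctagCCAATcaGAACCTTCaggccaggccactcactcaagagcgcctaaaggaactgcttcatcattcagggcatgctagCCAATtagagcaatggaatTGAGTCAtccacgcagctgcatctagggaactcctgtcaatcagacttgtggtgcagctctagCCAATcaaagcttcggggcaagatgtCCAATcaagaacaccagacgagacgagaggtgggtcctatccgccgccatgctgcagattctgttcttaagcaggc
Zfp239: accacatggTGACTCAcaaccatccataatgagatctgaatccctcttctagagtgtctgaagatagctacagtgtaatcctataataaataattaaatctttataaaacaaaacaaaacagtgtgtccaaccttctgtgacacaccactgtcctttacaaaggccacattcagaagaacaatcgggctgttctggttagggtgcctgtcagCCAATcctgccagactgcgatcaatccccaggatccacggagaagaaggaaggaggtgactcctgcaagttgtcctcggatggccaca
Zfp932: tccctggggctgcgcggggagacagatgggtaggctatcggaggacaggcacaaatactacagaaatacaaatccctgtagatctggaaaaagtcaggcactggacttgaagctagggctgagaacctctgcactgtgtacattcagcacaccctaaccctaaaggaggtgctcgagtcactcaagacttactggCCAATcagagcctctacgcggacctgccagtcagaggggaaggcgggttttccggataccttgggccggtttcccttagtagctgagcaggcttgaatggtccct
The letters searched on both strands were TGACGTCA for the cyclic AMP response element, TGANTCA for AP-1, GCGTGGGCG for the Egr factors, GAANNTTC for the heat shock element and CCAAT for the CCAAT box, which was added after the sequences had been seen. No motif of the set holds another, although matches can overlap in part. In these windows CCAAT stood once in Zfp281, 4 times in Zfp869 and once each in Zfp239 and Zfp932, while AP-1 letters stood in Zfp869 and Zfp239 and heat shock letters in Zfp869 alone.

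Over the 126 Zfp genes with a promoter entry, CCAAT was in 59 windows (46.8%), against 37.9% of the 27025 promoters in the table and 38.1% of the 9883 promoters of genes tested. It was in 9 of the 15 Zfp genes that rose with ischemia in wild-type mice (60.0%), in 14 of the 25 that fell (56.0%) and in 36 of the 86 that were not called (41.9%). AP-1 letters were in 6 windows (4.76%), against 7.93% of all promoters and 6.27% of those of genes tested, and 4 of those 6 belonged to genes that fell. Heat shock letters were in 10 windows (7.94%), against 7.95% of all promoters and 6.17% of those of genes tested. By class, they were in 3 that rose (20.0%), 2 that fell (8.0%) and 5 not called (5.81%). The cyclic AMP element and the Egr letters were in 0 of 126 windows, against 1.88% and 0.625% of all promoters, and 2.75% and 1.05% of those of genes tested. The median window of a Zfp gene held 16 CG dinucleotides, against 7 in the whole table and 18 over the genes tested. The median was 17 in the Zfp genes that rose and 12 in those that fell. These counts are descriptions of the letters, with no test.

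Sumo3 was the one SUMO gene with a probe set under its symbol alone here, although that set is marked as shared between genes. Its intensity was 1879, 1936 and 1909 in SUMO-KD ischemia and 1337, 1689 and 1655 in SUMO-KD sham. In wild-type mice it was 3436, 3245 and 3518 after ischemia and 2314, 2247 and 2467 after sham surgery. Every SUMO-KD array was below every wild-type array. Array medians ran between 141.0 and 162.3, with 22.4% to 28.6% of probe sets under 32, the offset added before taking log2. A ribosomal RNA control probe set near the 3′ end read 2829 to 4127 on 5 of the 6 ischemia arrays and 6316 on SUMO-KD ischemia replicate 2, against 5087 to 7569 on the sham arrays. The control set near the 5′ end read 1275 to 1660 on the same 5 arrays and 4127 on SUMO-KD ischemia replicate 2, against 4194 to 6528 on the sham arrays. The part of these controls in the ischemia results was not tested. Without SUMO-KD ischemia replicate 2 the wild-type ischemia counts below were 22 rises and 27 falls, and the other counts without it are given in their place. No Zfp gene was dropped as dim, and 22 of the 156 had a mean intensity under 32 (14.1%, against 22.3% of all genes).

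Ischemia changed Zfp genes in both directions in wild-type CA1. Of 156 Zfp genes, 22 rose and 28 fell at an adjusted p under 0.05 (limma with Benjamini-Hochberg adjustment over all genes), which is 32.1% of the members, against 18.5% of all genes tested. By direction the shares were 14.1% against 9.59% of all genes for rises, and 17.9% against 8.88% for falls. The median log2 change over Zfp genes was -0.05, against -0.04 over all genes. When arrays were centred on their own medians, the calls over all genes were 986 higher and 1426 lower, in place of 1188 and 1101, and those over Zfp genes were 19 and 31. The 3 ischemia values lay wholly above the 3 sham values for 32 Zfp genes (20.5%, against 15.6% of all genes) and wholly below them for 38 (24.4%, against 19.5%). At an unadjusted p under 0.05, 30 were higher and 37 lower, 67 in all, against 31.3% of all genes. All genes were not split by direction at this threshold, here or below. In bulk tissue, fewer cells of a type and less RNA per cell cannot be told apart.

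**Figure D1:**
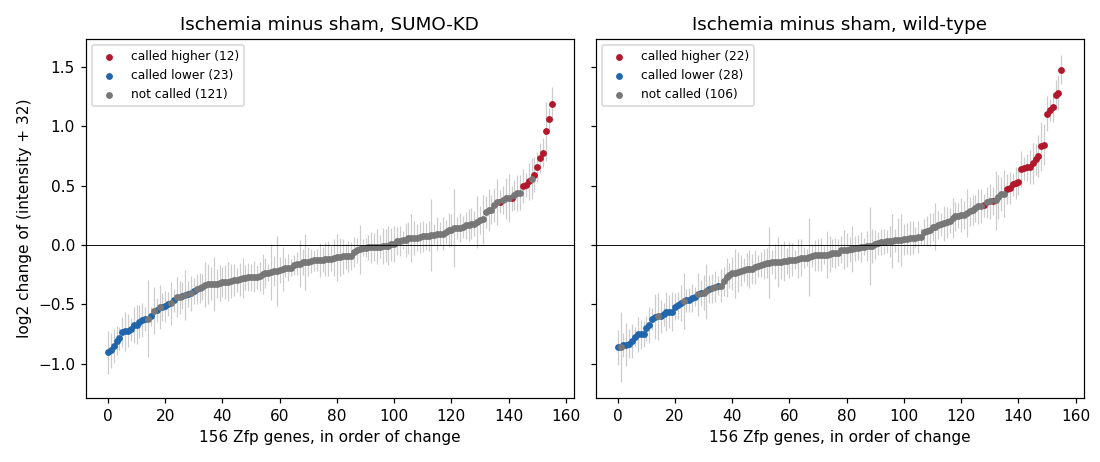
Log2 change of (intensity + 32), ischemia minus sham, for each of the 156 Zfp genes in order of size, in SUMO-KD mice (left) and wild-type mice (right), with bars of 1 standard error. In SUMO-KD mice 12 genes were called higher and 23 lower, and in wild-type mice 22 and 28, with rises of up to 1.19 and 1.48 and falls of up to -0.90 and -0.86.

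Zfp703, a transcriptional cofactor of the NET family without the usual finger array, had the largest rise. Its intensity was 746, 665 and 905 in wild-type ischemia, against 268, 241 and 256 in wild-type sham. The ischemia arrays were all far above the sham arrays, with a log2 change of 1.48 ± 0.12 (SE, n = 3 each, limma adjusted p = 1.64e-05).
Zfp593, whose yeast relative Bud20 accompanies large ribosomal subunit precursors out of the nucleus, read 186, 145 and 138 in wild-type ischemia, against 47.6, 34.4 and 54.2 in wild-type sham. The groups were again apart, by 1.28 ± 0.14 (limma adjusted p = 0.000158). Zfp622, whose yeast relative Rei1 acts in late maturation of the same subunit and which had the brightest Zfp probe set, read 4723, 4277 and 5527 in wild-type ischemia, against 3479, 3236 and 3717 in wild-type sham. It rose by 0.47 ± 0.13 (limma adjusted p = 0.0242).
Zfp281, a transcription factor known from mouse embryonic stem cells, read 2347, 2560 and 2440 in wild-type ischemia, against 1095, 1187 and 1018 in wild-type sham. All 3 ischemia arrays were well clear of the sham arrays, with a log2 change of 1.13 ± 0.09 (limma adjusted p = 1.53e-05).

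Zfp574, Zfp623 and Zfp869 also rose by more than 1 on the log2 scale. Zfp574 read 1837, 1597 and 1964 in wild-type ischemia, against 743, 715 and 725 in wild-type sham. Zfp623 read 742, 632 and 828, against 293, 324 and 309 in the same groups, and Zfp869 read 513, 476 and 394, against 220, 217 and 158. None of these groups overlapped. The changes were 1.26, 1.16 and 1.10, with limma adjusted p of 6.9e-05, 0.000124 and 0.000476.
The next 6 rises lay between 0.66 and 0.84: Zfp948, Zfp52, Zfp451, Zfp275, Zfp334 and Zfp24. Zfp451, whose human relative is a SUMO ligase that builds SUMO chains, read 805, 584 and 577 in wild-type ischemia, against 307, 439 and 381 in wild-type sham. Its ischemia arrays were above its sham arrays by 0.75 ± 0.18 (limma adjusted p = 0.0127), but without wild-type sham replicate 1 or wild-type ischemia replicate 1 the adjusted p rose to as much as 0.0547. Zfp24, needed for myelination in the mouse, rose by 0.66 (limma adjusted p = 0.0079) on its brightest probe set. With its probe sets averaged the adjusted p was 0.124. Zfp52 lost its call without wild-type ischemia replicate 1 or 2 or wild-type sham replicate 2, at an adjusted p up to 0.0594. Zfp334 lost its call without wild-type ischemia replicate 1 or 3 or wild-type sham replicate 3, at an adjusted p up to 0.0656, and also without probe sets marked as shared between genes (adjusted p = 0.631). The other 10 rises, between 0.33 and 0.65, were Zfp189, Zfp142, Zfp131, Zfp410, Zfp330, Zfp654, Zfp110, Zfp622, Zfp821 and Zfp639. Zfp410, a factor known in the mouse for activating Chd4, was among them at 0.53 (limma adjusted p = 0.00534).

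**Figure D2:**
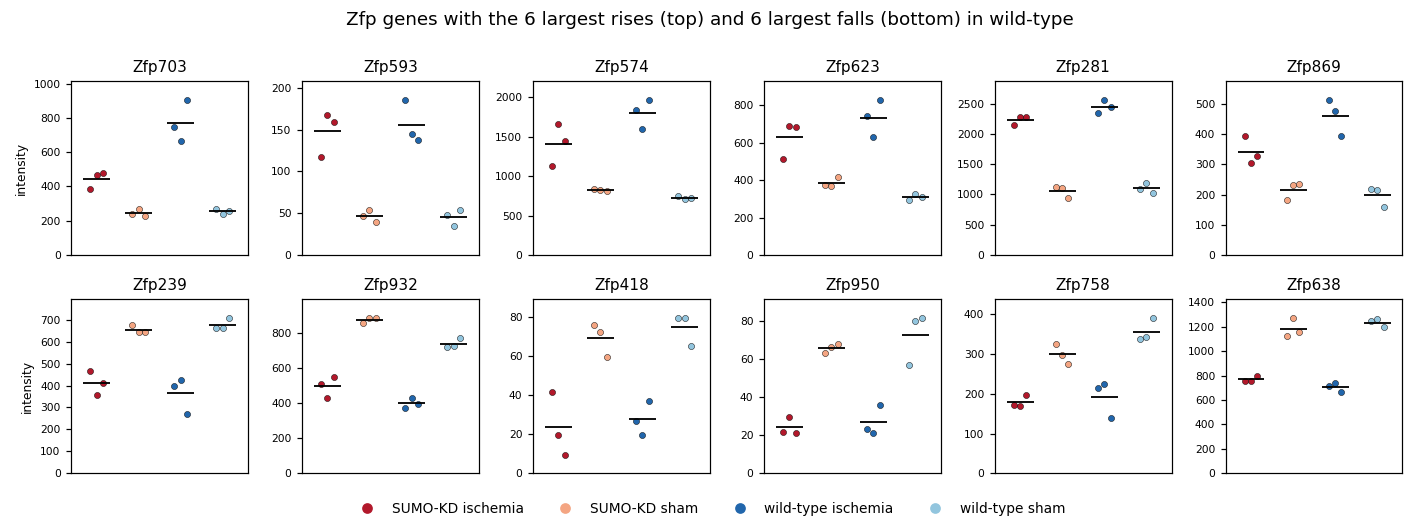
Intensity on each array for the Zfp genes with the 6 largest rises (top) and the 6 largest falls (bottom) in wild-type mice, with groups from left to right SUMO-KD ischemia, SUMO-KD sham, wild-type ischemia and wild-type sham; points are arrays and lines are means. In all 12 panels the ischemia arrays lay apart from the sham arrays of the same genotype, as for Zfp281 at 2142 to 2282 against 943 to 1116 in SUMO-KD mice.

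The 12 largest falls lay between -0.86 and -0.62. Zfp239, a finger protein also known as Mok2 that binds RNA as well as DNA, read 397, 425 and 270 in wild-type ischemia, against 663, 663 and 708 in wild-type sham. No ischemia array came near the sham arrays, and the log2 change was -0.86 ± 0.14 (limma adjusted p = 0.00184). Zfp932, a mouse KRAB protein, read 370, 432 and 397 in wild-type ischemia, against 723, 727 and 772 in wild-type sham. Its change was -0.84 ± 0.10 (limma adjusted p = 0.000196). Zfp638, a nuclear protein that binds RNA and acts in splicing and in silencing of foreign DNA, read 714, 742 and 669 in wild-type ischemia, against 1245, 1260 and 1195 in wild-type sham. It was among the tightest of the falls, at -0.77 ± 0.08 (limma adjusted p = 8.8e-05).
Zfp207, a spindle and kinetochore protein that binds Bub3, read 451, 525 and 517 in wild-type ischemia, against 816, 830 and 840 in wild-type sham. The groups were apart, by -0.70 ± 0.10 (limma adjusted p = 0.000862), and all 4 of its other probe sets had the same sign.
Zfp418 and Zfp950 were dim. Zfp418 read 26.8, 19.7 and 37.2 in wild-type ischemia, against 79.4, 79.5 and 65.1 in wild-type sham, and Zfp950 read 23.4, 21.3 and 36.1, against 57.1, 79.8 and 81.6. Their changes of -0.84 and -0.83 are on the scale of log2(intensity + 32), which understates the change of dim genes. Zfp758, Zfp759, Zfp937, Zfp790, Zfp101 and Zfp93 fell by 0.81, 0.75, 0.75, 0.75, 0.68 and 0.62 on the log2 scale. Zfp101 lost its call when its probe sets were averaged (limma adjusted p = 0.134). The remaining 16 falls lay between -0.60 and -0.34.

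Of the 50 Zfp genes called in wild-type mice, 18 had further probe sets, 26 in all. Of these 26, 22 had the same sign as the probe set used, 11 were called in the same direction and 0 in the opposite one. 

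In SUMO-KD mice 12 Zfp genes rose and 23 fell with ischemia, 22.4% of the members, against 10.7% of all genes tested. Rises made up 7.69% of members, against 6.08% of all genes, and falls 14.7%, against 4.62%. The median change over Zfp genes was -0.12, against -0.02 over all genes. These counts, like those over all genes, leaned on single arrays. Without SUMO-KD ischemia replicate 2, the array with the high ribosomal control, there were 8 rises and 15 falls. Over all genes that omission gave 493 rises and 269 falls, in place of 754 and 573. Rises numbered 6 without SUMO-KD ischemia replicate 3, 6 without SUMO-KD sham replicate 1 and 7 without SUMO-KD sham replicate 3, and falls numbered 15 without SUMO-KD ischemia replicate 3. Over all genes the rises in these omissions were 475, 519 and 563, and the falls without SUMO-KD ischemia replicate 3 were 311. The ischemia arrays lay wholly above sham for 17 Zfp genes (10.9%, against 13.9% of all genes) and wholly below for 45 (28.8%, against 15.9%). At an unadjusted p under 0.05, 20 were higher and 43 lower, 63 of 156 in all, against 24.1% of all genes in either direction.

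The largest rises were in Zfp593 and Zfp281. Zfp593 read 117, 167 and 159 in SUMO-KD ischemia, against 46.9, 53.6 and 39.1 in SUMO-KD sham, a change of 1.19 (limma adjusted p = 0.000364). Zfp281 read 2142, 2282 and 2274, against 1116, 1109 and 943, a change of 1.06 (limma adjusted p = 3.65e-05). In both genes no ischemia array overlapped the sham arrays. Zfp703 read 386, 467 and 482 in SUMO-KD ischemia, against 241, 269 and 227 in SUMO-KD sham, and rose by 0.78 (limma adjusted p = 0.00201).
Zfp503, the relative of Zfp703 known from striatal development in the mouse, read 418, 361 and 356 in SUMO-KD ischemia, against 153, 234 and 159 in SUMO-KD sham. It rose by 0.96 ± 0.25 (limma adjusted p = 0.0295), against a change of 0.38 in wild-type mice that did not pass (adjusted p = 0.337). Its call was lost without any one of the SUMO-KD ischemia arrays or SUMO-KD sham replicate 1 or 3, at an adjusted p up to 0.105, and its second probe set changed by -0.01 in SUMO-KD mice and 0.50 in wild-type mice.
Among the falls, Zfp418 changed by -0.90, Zfp759 by -0.89 and Zfp53 by -0.85. Zfp53 read 62.7, 63.3 and 67.0 in SUMO-KD ischemia, against 171, 133 and 124 in SUMO-KD sham, with an adjusted p of 0.00278 from limma. Zfp950, Zfp932 and Zfp937 followed at -0.81, -0.79 and -0.73. All of these groups were apart without overlap.

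Of the 22 rises in wild-type mice, 10 were also called higher in SUMO-KD mice, which is 45.5% of the wild-type list and 83.3% of the SUMO-KD list. Of the 28 falls, 19 were shared, 67.9% of the wild-type list and 82.6% of the SUMO-KD list. Shared calls were not counted over all genes, so these shares cannot be read as particular to Zfp genes. No gene was called in opposite directions, and 100 of the 156 were called in neither genotype. The 22 genes that rose in wild-type mice all had a positive change in SUMO-KD mice, with a median of 0.39 in SUMO-KD and 0.67 in wild-type. These 22 were chosen for their wild-type values, so the smaller SUMO-KD median is a description. The genes chosen on SUMO-KD rises had medians of 0.62 in SUMO-KD and 0.87 in wild-type. For the 28 wild-type falls the medians were -0.51 in SUMO-KD and -0.59 in wild-type, and for the 23 SUMO-KD falls they were -0.65 in SUMO-KD and -0.58 in wild-type.
The difference between the responses was itself tested. In limma's interaction term 0 Zfp genes passed, against 0.0161% of all genes, and 12 had an unadjusted p under 0.05, against 6.20% of all genes. Of these 12, 10 were below 0, meaning a lower signed log2 change in SUMO-KD than in wild-type mice. That can be a smaller rise or a larger fall. The sign was not counted over all genes. The smallest adjusted p among Zfp genes was 0.43, for Zfp703 at -0.70 ± 0.17. The next smallest unadjusted p belonged to Zfp189 (-0.58, adjusted p = 0.567), Zfp275 (-0.59, adjusted p = 0.718), Zfp574 (-0.53, adjusted p = 0.718) and Zfp623 (-0.51, adjusted p = 0.761).

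**Figure D3:**
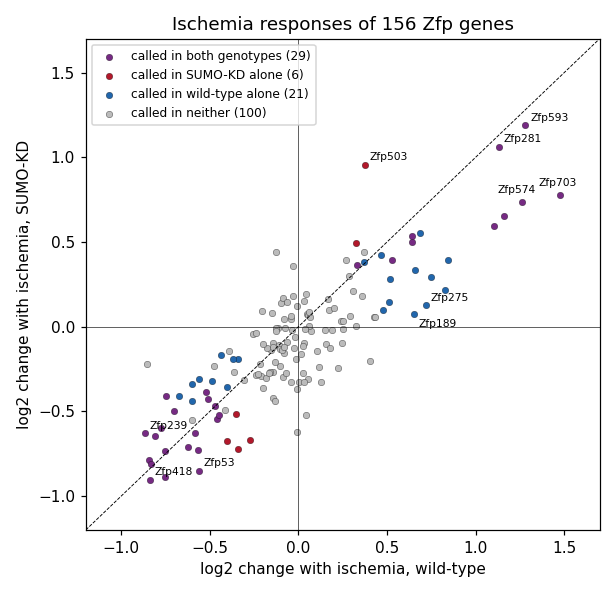
Log2 change with ischemia for each of the 156 Zfp genes in SUMO-KD mice (vertical axis) and wild-type mice (horizontal axis); colours mark the 29 called in both genotypes, the 6 in SUMO-KD alone and the 21 in wild-type alone, and the dashed line marks equal change. Zfp593 and Zfp281 lie near the dashed line, while Zfp703 lies below it, at 0.78 in SUMO-KD and 1.48 in wild-type.

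After sham surgery, 2 Zfp genes were higher in SUMO-KD than in wild-type mice and 0 were lower (1.28% of members, against 2.10% of all genes, of which 1.50% were higher and 0.597% lower). By unadjusted p under 0.05, 16 were higher and 4 lower, 20 of 156 in all, against 14.2% of all genes in either direction. The SUMO-KD arrays lay wholly above the wild-type arrays for 24 Zfp genes (15.4%, against 11.0% of all genes) and wholly below for 6 (3.85%, against 9.67%). Zfp37, a KRAB finger gene first known from mouse testis and also expressed in neurons, read 1067, 919 and 1072 in SUMO-KD sham, against 553, 556 and 591 in wild-type sham. Every SUMO-KD array was above every wild-type array, by 0.81 ± 0.10 (limma adjusted p = 0.00189), and the call held with each array left out in turn. After ischemia it read 843, 1033 and 984 in SUMO-KD, against 747, 627 and 665 in wild-type, a difference of 0.47 that did not pass (limma adjusted p = 0.0508).
Zfp110, which binds the neurotrophin receptor p75NTR and is also known as NRIF, read 370, 357 and 352 in SUMO-KD sham, against 211, 207 and 180 in wild-type sham. It was higher by 0.76 ± 0.14 (limma adjusted p = 0.0146), and the call was lost without wild-type sham replicate 1 or 3 or SUMO-KD sham replicate 1 or 3, leaving 1 Zfp gene. Its other 2 probe sets gave 0.80 and 0.85. The gene has a close paralog, Zfp369, and its probes may read both. Zfp352 (-0.75, adjusted p = 0.0794), Zfp930 (0.39, adjusted p = 0.0887) and Zfp704 (-0.25, adjusted p = 0.165) had the next smallest p and did not pass. In the same comparison the CA1 marker Wfs1 was lower in SUMO-KD sham, at 1058 to 1343 against 1922 to 2708 in wild-type sham, and its part in these differences was not tested.

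After ischemia, 4 Zfp genes were lower in SUMO-KD than in wild-type mice and 0 were higher (2.56% of members, against 1.56% of all genes, and 0.557% of all genes for lower alone). By unadjusted p under 0.05, 13 were higher and 14 lower, 27 of 156 in all, against 15.5% of all genes in either direction. The SUMO-KD arrays lay wholly above the wild-type arrays for 13 Zfp genes (8.33%, against 11.3% of all genes) and wholly below for 16 (10.3%, against 8.90%). Zfp703, described above, was at 386 to 482 in SUMO-KD ischemia and 665 to 905 in wild-type ischemia, a difference of -0.75 ± 0.12 (limma adjusted p = 0.012). Zfp189, a KRAB finger gene studied in the mouse prefrontal cortex under stress, read 267, 250 and 263 in SUMO-KD ischemia, against 460, 357 and 427 in wild-type ischemia. The groups were apart by -0.61 ± 0.11 (limma adjusted p = 0.0222). Ischemia against sham gave 0.07 for it in SUMO-KD mice (adjusted p = 0.762) and 0.65 in wild-type mice (adjusted p = 0.0021).
Zfp275 read 610, 765 and 699 in SUMO-KD ischemia, against 1083, 947 and 1325 in wild-type ischemia, a difference of -0.66 ± 0.13 (limma adjusted p = 0.0331). Its sham arrays were at 559, 647 and 686 in SUMO-KD and at 686, 600 and 700 in wild-type, which overlapped. Zfp524 read 48.2, 45.5 and 35.7 in SUMO-KD ischemia, against 65.5, 79.3 and 110 in wild-type ischemia, a difference of -0.62 (limma adjusted p = 0.0489). Its call was lost in 10 of the 12 omissions of 1 array and in 7 other settings, offsets of 16 and 64 and the replicate block among them, at an adjusted p up to 0.194.
None of these 4 calls held under every omission of 1 array. The count fell to 0 without SUMO-KD ischemia replicate 1, to 1 without SUMO-KD ischemia replicate 3 or wild-type ischemia replicate 3, and to 2 when the array left out was SUMO-KD ischemia replicate 2, SUMO-KD sham replicate 2, replicate 1 of wild-type ischemia or replicate 1 of wild-type sham. Over all genes, 69 were lower with every array and 28 without SUMO-KD ischemia replicate 1. Without SUMO-KD ischemia replicate 3 it was 24, and without wild-type ischemia replicate 3 it was 43. Zfp genes called higher numbered 2 without SUMO-KD ischemia replicate 1 and 1 without SUMO-KD ischemia replicate 2 or wild-type sham replicate 2. Fitted on the 2 ischemia groups alone, 0 Zfp genes and 13 of all genes were called lower, and Zfp703 had a limma adjusted p of 0.0936. Zfp688 had the largest difference of any member, 1.25 ± 0.29, and did not pass (adjusted p = 0.065). It was picked out after its values were seen, 169, 105 and 156 in SUMO-KD ischemia against 58.3, 60.2 and 14.2 in wild-type ischemia.

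**Figure D4:**
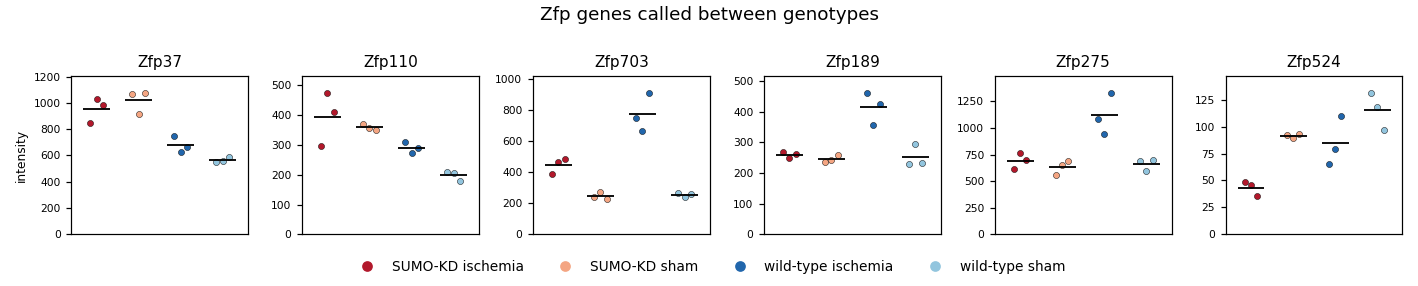
Intensity on each array for the 6 Zfp genes called between genotypes, with groups from left to right SUMO-KD ischemia, SUMO-KD sham, wild-type ischemia and wild-type sham; points are arrays and lines are means. Zfp37 and Zfp110 were called in sham, with Zfp37 at 919 to 1072 in SUMO-KD sham and 553 to 591 in wild-type sham, and the other 4 were called after ischemia.

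Rises and falls were counted by where the genes lie. Members were grouped by how many other genes with a Zfp symbol lie within 500 kb in the RefSeq table of GRCm38.p6, a grouping chosen after the values had been seen and given with no test. Neighbours are often duplicates of one another, so their probes may cross-react and they are not independent. Of the 65 Zfp genes with 4 or more neighbours, 1 rose and 14 fell in SUMO-KD mice, and 4 rose and 18 fell in wild-type mice. Of the 36 with 1 to 3, 3 rose (8.33%) and 5 fell (13.9%) in SUMO-KD mice, and 7 rose (19.4%) and 5 fell (13.9%) in wild-type mice. Of the 55 with none, 8 rose and 4 fell in SUMO-KD mice, and 11 rose and 5 fell in wild-type mice. Falls were thus 21.5% of the crowded genes and 7.27% of the isolated genes in SUMO-KD mice, and 27.7% and 9.09% in wild-type mice. Over all genes falls were 4.62% in SUMO-KD mice and 8.88% in wild-type mice, so the share of isolated genes that fell in wild-type mice was near that of all genes. Rises were 1.54% of the crowded genes and 14.5% of the isolated genes in SUMO-KD mice, against 6.08% of all genes, and 6.15% and 20.0% in wild-type mice, against 9.59%. The crowded genes had dimmer probe sets, with a median intensity of 103.5, against 391.9 for the isolated genes, and the part of brightness was not tested. Falls in wild-type mice were 22.8% of the genes with any neighbour within 500 kb. With neighbours counted within 250 kb or 1000 kb, falls in wild-type mice were 23.4% and 21.7% of the genes with any neighbour. They were 9.68% and 10.0% of those with none.

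**Figure D5:**
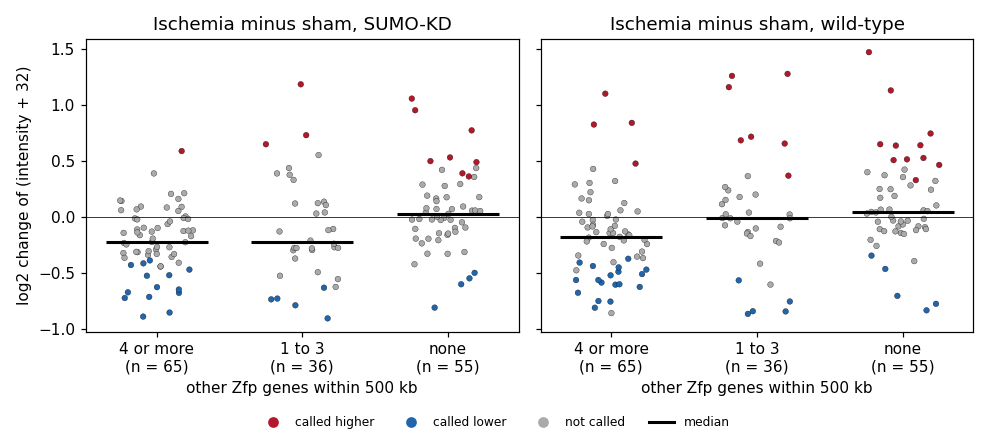
Log2 change with ischemia for Zfp genes with 4 or more, 1 to 3 or no other Zfp gene within 500 kb, in SUMO-KD mice (left) and wild-type mice (right); points are genes and lines are medians. The medians for 4 or more neighbours were -0.22 in SUMO-KD and -0.18 in wild-type, and those for none were 0.03 and 0.05.

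Chromosome 7 held 40 Zfp genes, of which 1 rose and 8 fell in SUMO-KD mice and 2 rose and 12 fell in wild-type mice. Falls were thus 20.0% in SUMO-KD mice and 30.0% in wild-type mice, against 4.62% and 8.88% of all genes, and rises 2.5% and 5.0%, against 6.08% and 9.59%. In one cluster there, Zfp112, Zfp235, Zfp111, Zfp109, Zfp108, Zfp93, Zfp61 and Zfp94 lie in that order among the members. In wild-type mice Zfp112, Zfp93 and Zfp94 fell, by 0.60, 0.62 and 0.60 on the log2 scale. Zfp111 (-0.47), Zfp108 (-0.40), Zfp109 (-0.14), Zfp235 (-0.14) and Zfp61 (0.03) did not pass. In SUMO-KD mice Zfp93 (-0.71) and Zfp108 (-0.68) were called lower, while Zfp94 (-0.44), Zfp112 (-0.34), Zfp111 (-0.23), Zfp235 (-0.12), Zfp109 (-0.10) and Zfp61 (0.15) did not pass. Chromosome 8 held 17 members, of which 3 rose in SUMO-KD mice and 4 in wild-type mice, with 0 falls in either. Those rises were 17.6% and 23.5% of its members, against 6.08% and 9.59% of all genes.
Neighbours on chromosome 17 did not all move together. Zfp53, Zfp52 and Zfp948 lie side by side there. Zfp53 changed by -0.85 in SUMO-KD mice and -0.56 in wild-type mice and was called lower in both. Zfp52 changed by 0.22 in SUMO-KD and 0.83 in wild-type, and Zfp948 by 0.39 and 0.84, both called higher in wild-type alone. These clusters were chosen after their values were seen.

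Calls were also counted by brightness. Of the 11 Zfp genes with a mean intensity of at least 1000, 3 rose and 1 fell in SUMO-KD mice, and 6 rose and 1 fell in wild-type mice. The rises were 27.3% in SUMO-KD mice, against 6.44% of all genes that bright, and 54.5% in wild-type mice, against 10.4%, while the falls were 9.09% in each, against 5.45% and 14.2%. Of the 33 with a mean between 32 and 100, 1 rose and 8 fell in SUMO-KD mice, and 1 rose and 9 fell in wild-type mice. The falls were 24.2% in SUMO-KD mice, against 2.54% of all genes in that range, and 27.3% in wild-type mice, against 3.56%. The rises were 3.03% in each, against 4.97% and 8.81%. Of the 43 between 300 and 1000, 11.6% rose and 16.3% fell in SUMO-KD mice, against 9.71% and 7.72% of all genes. In wild-type mice these were 23.3% and 20.9%, against 14.3% and 13.8%. Of the 47 between 100 and 300, 6.38% rose and 12.8% fell in SUMO-KD mice, against 7.8% and 6.19%. In wild-type mice 10.6% rose and 17.0% fell, against 12.6% and 9.76%. Of the 22 under 32, 0 rose and 1 fell in each genotype (4.55% falls, against 0.398% and 1.3% of all genes). The 5 brightest were Zfp622, Zfp106, Zfp91, Zfp281 and Zfp871, although brightness cannot be set against brightness between probe sets as an amount of RNA. Zfp871 read 1478, 1365 and 1563 in SUMO-KD ischemia, against 2090, 2161 and 1883 in SUMO-KD sham, and 1446, 1283 and 1212 in wild-type ischemia, against 1783, 1747 and 1951 in wild-type sham. It fell by 0.47 in each genotype, with limma adjusted p of 0.0103 in SUMO-KD and 0.0065 in wild-type. Zfp106, an RNA-binding protein, and Zfp91, a ubiquitin ligase, did not pass in either genotype on their brightest probe sets. The probe sets of Zfp91 disagreed. Its brightest set changed by -0.12 in wild-type mice and -0.02 in SUMO-KD mice. A dimmer set, with a mean intensity of 303.6, rose by 0.62 in wild-type mice (limma adjusted p = 0.00557). That set changed by 0.43 in SUMO-KD mice (limma adjusted p = 0.0505). Both p-values came from the separate fit over 20393 probe sets, so they cannot be set against the calls of the main fit. In that separate fit Zfp131, called higher in SUMO-KD mice in the main fit, had an adjusted p of 0.0533. The dimmest set, at 29.9, changed by -0.12 and 0.12 and did not pass.

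The proteins through which KRAB fingers act were followed as a list, of which 23 of 32 genes were measured. In SUMO-KD mice 1 rose and 4 fell with ischemia (4.35% and 17.4%, against 6.08% and 4.62% of all genes), and in wild-type mice 1 rose and 5 fell (4.35% and 21.7%, against 9.59% and 8.88%). The heterochromatin protein gene Cbx1 read 405, 463 and 422 in wild-type ischemia, against 639, 677 and 634 in wild-type sham, and fell by 0.56 on the log2 scale (limma adjusted p = 0.00206). Cbx5, the remodeler Smarcad1, the Setdb1 partner Atf7ip and the DNA methyltransferase Dnmt1 fell by 0.46, 0.51, 0.50 and 0.46. The corepressor Trim28 changed by -0.16 (adjusted p = 0.287) and Setdb1 by -0.20 (adjusted p = 0.463), neither past the test. Trim24 was the single rise, at 0.38 (limma adjusted p = 0.0243).
Of the 19 Zbtb genes, finger proteins with a BTB domain, 3 rose (15.8%) and 0 fell in SUMO-KD mice, and 4 rose (21.1%) and 1 fell (5.26%) in wild-type mice, to be read against the shares of all genes above. Zbtb21 rose most there, by 0.97 (limma adjusted p = 0.000427). Of the 10 Zscan and Zkscan genes, 0 rose and 1 fell in each genotype, and that 1 fall is 10.0% of the list, in wild-type mice close to the 8.88% of all genes. Of 8 measured genes of CCCH mRNA decay, 3 rose (37.5%) and 1 fell (12.5%) in SUMO-KD mice, and 2 of 8 rose and 1 fell (12.5%) in wild-type mice, with Zfp36 itself up by 2.03 in SUMO-KD and 1.96 in wild-type.

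Markers of cell types moved in some of the same comparisons. Both measured CA1 markers, Wfs1 and Pou3f1, were lower with ischemia in wild-type mice (-0.60 and -0.81, limma adjusted p = 0.0206 and 0.0468) and neither was called in SUMO-KD mice. Wfs1 was also lower in SUMO-KD sham than in wild-type sham (-0.87, limma adjusted p = 0.0144), the comparison in which Zfp37 and Zfp110 were called, and Pou3f1 differed there by -0.88 without passing (limma adjusted p = 0.118). Their summed intensity was 1855 to 2316 in SUMO-KD ischemia, 2093 to 2704 in SUMO-KD sham, 2035 to 2927 in wild-type ischemia and 3605 to 5241 in wild-type sham. Of 4 microglia markers, 3 were lower with ischemia in each genotype, with sums of 2903 to 3226 in SUMO-KD ischemia against 3941 to 4175 in SUMO-KD sham, and 2906 to 3160 in wild-type ischemia against 4072 to 4346 in wild-type sham. Of 4 astrocyte markers, 2 were higher in SUMO-KD sham than in wild-type sham, with sums of 6822 to 7275 against 4624 to 5617. With ischemia, 0 of them were called in SUMO-KD mice, and Gfap rose in wild-type mice (0.77, limma adjusted p = 0.00215), where the sums were 5972 to 6533 in wild-type ischemia. Of 5 interneuron markers, 0 were called in SUMO-KD mice, and Pvalb and Sst fell in wild-type mice by 0.37 and 0.40, with sums of 9811 to 12817 in wild-type ischemia against 11960 to 12656 in wild-type sham. Of 4 dentate granule cell markers, Lct fell in both genotypes (-1.25 in SUMO-KD and -1.49 in wild-type) and Prox1 rose in wild-type mice (1.03), with sums of 1804 to 2220 in SUMO-KD ischemia against 3108 to 4326 in SUMO-KD sham, and 1870 to 2023 in wild-type ischemia against 2289 to 3807 in wild-type sham. Of 4 endothelial markers, Slco1a4 alone was called, lower in both genotypes (-1.14 in SUMO-KD and -1.51 in wild-type), with sums of 1162 to 1269 in SUMO-KD ischemia against 1431 to 1922 in SUMO-KD sham, and 1105 to 1492 in wild-type ischemia against 1702 to 2162 in wild-type sham. None of the pyramidal neuron, CA3, oligodendrocyte or choroid plexus markers measured was called with ischemia. Of the 2 pyramidal neuron markers, Neurod6 changed by -0.94 in wild-type mice with groups apart (limma adjusted p = 0.128), and Camk2a by 0.11. Both lay wholly lower in SUMO-KD sham than in wild-type sham, at -0.99 and -0.48, without passing (limma adjusted p = 0.281 and 0.2). The 4 dentate granule cell markers differed there by -0.04 to 0.88, with 0 called. No marker measured had a mean intensity under 32. Their part in the Zfp results was not tested.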

How the data were processed

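RNA of pooled CA1 tissue was hybridised to Affymetrix arrays, 12 in all. The deposited values were linear intensities, 1 per probe set, and each array's mean, after trimming 2% at either end, was 500.2. Partek 6.6 and RMA appear in the submitters' processing notes, and the deposited form differs from RMA's log2 output; what each tool did is not stated in the sources used. A common mean hides any change in total RNA.

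Of 22690 probe sets, 20393 carried 1 gene symbol and 691 several, in GEO's platform annotation. For each gene the probe set with the highest mean log2(intensity + 32) was kept, and 53 of the Zfp genes had more than 1. A further 6 Zfp symbols stood only on probe sets of several genes and were left out. All 156 members matched RefSeq on GRCm38.p6, 126 with a promoter.

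A model with 4 group means was fitted to 12394 genes with limma 3.58.1 in R 4.3.3, and calls were two-sided at a Benjamini-Hochberg adjusted p under 0.05. The number of arrays limits the precision. Members and lists were chosen with earlier results of these data known. Named genes were the 12 largest rises and falls in wild-type mice and the 6 largest in SUMO-KD mice among called genes with groups apart, the called genes or those with the 5 smallest p for the other comparisons, and the 5 brightest. Alternatives were other offsets, probe set rules, normalizations, fits, and each array left out. Grouping members by KRAB domain or finger number was not run.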

Additional observations from a re-analysis of the deposited data

How the results depend on the processing

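The counts of Zfp genes called with ischemia stayed within 1.5 times under all 11 alternatives that keep every array: 19 to 24 higher and 20 to 32 lower in wild-type mice, and 8 to 17 higher and 18 to 33 lower in SUMO-KD mice. With arrays centred on their medians the median change was -0.157 in SUMO-KD and -0.116 in wild-type. For genotype after ischemia, genes called higher numbered 2 with an offset of 64, 2 with dim genes left out, 1 with quantile normalization, 2 with trended and robust variances and 3 with array weights, and 0 were called lower when the compared groups alone were fitted. The cause was not tested. Over all genes, fitting the compared groups alone gave 900 higher and 663 lower with ischemia in wild-type mice, in place of 1188 and 1101. For genotype after ischemia it gave 35 and 13, in place of 124 and 69.

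Leaving out 1 array in turn gave, for ischemia in SUMO-KD mice, 6 to 13 higher, 15 to 25 lower and medians of -0.143 to -0.094. The calls over all genes ran there from 475 to 790 higher and from 269 to 615 lower. In wild-type mice it gave 15 to 22 higher, 21 to 28 lower and medians of -0.073 to -0.014, the last without wild-type sham replicate 2. Calls over all genes ran from 832 to 1206 higher and from 693 to 1101 lower. For genotype in sham it gave 1 to 2 higher, 0 lower and medians of 0.026 to 0.066, and after ischemia 0 to 2 higher, 0 to 4 lower and medians of -0.037 to 0.008. Calls over all genes ran in sham from 85 to 187 higher and from 24 to 84 lower. After ischemia they ran from 36 to 132 higher and from 24 to 78 lower. The interaction stayed at 0 calls, with medians of -0.081 to -0.042.

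Over genes, deviations from the group mean correlated at -0.166 to 0.276 between same-numbered arrays of different groups. Between arrays with different numbers they correlated at -0.363 to 0.338. With 3 arrays per group these values cannot exclude a pairing, and the labels state none. With a replicate block, 24 Zfp genes were higher and 27 lower with ischemia in wild-type mice, 13 and 22 in SUMO-KD mice, 2 and 0 for genotype in sham, 0 and 3 after ischemia and 0 for the interaction. Of the 24 genes named for wild-type ischemia, 19 kept their call under every alternative, and so did 11 of the 12 named in SUMO-KD mice.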
